A study of Mus musculus with 6 samples.

Results

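The semaphorins, plexins and neuropilins were followed in B16F10 spheroids by RNA sequencing. The family was taken as all protein-coding mouse genes whose symbols begin with Sema3 to Sema7 or with Plxna, Plxnb, Plxnc or Plxnd and a digit, plus Nrp1 and Nrp2. This gave 31 genes (20 semaphorins, 9 plexins and 2 neuropilins) of 34981 in the deposited table. B16F10 is a pigmented mouse melanoma line of C57BL/6 origin, used here as a single line with no genetic change named. Cells were embedded in Matrigel, a basement membrane extract, and kept as spheroids for 10 days with the bone morphogenetic protein BMP2 at 100 ng/ml (3 libraries) or with PBS in its place (3 libraries). Each of 3 batches held 1 BMP2 and 1 PBS culture, and the comparison was made within batches.

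Semaphorins are guidance ligands that share a sema domain. Those of class 3 are secreted, those of classes 4 to 6 span the membrane, and Sema7a is held by a lipid (GPI) anchor. Plexins are their receptors and carry an intracellular domain that inactivates small GTPases of the Ras and Rap families, while neuropilins bind most class 3 ligands and pair with class A plexins. In the neural crest, from which melanocytes arise, these pairs guide migrating cells.

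The libraries held 27821911 to 36856498 estimated counts, so that 3 counts in a library corresponded to 0.0749 to 0.103 CPM (TMM-scaled counts per 1e+06 counts of the library). The PBS library of batch 1, called PBS 1 here, was far from the rest: its score on the first principal component was -79.7, and the other libraries scored -16.8 to 55.5. All 7 melanocyte lineage markers reached 1 CPM in at least 3 libraries, and their summed level was 28870 to 39071 CPM with BMP2 and 23669 to 26310 CPM with PBS. The macrophage genes Adgre1 and Tyrobp, the endothelial genes Cdh5 and Tek and the neuronal gene Snap25 were at 0 after rounding in all 6 libraries. Summed marker levels were 3.12 to 5.31 CPM with BMP2 and 4.38 to 8.49 CPM with PBS for 5 fibroblast genes. For 5 macrophage genes they were 2.15 to 3.15 CPM with BMP2 and 3.71 to 5.01 CPM with PBS. Most of this was 1 gene, Cd68, at 2.02 to 3.05 CPM with BMP2 and 3.54 to 4.91 CPM with PBS. Ptprc and Csf1r stayed at or under 0.169 CPM in every library. For 4 endothelial genes the sums were 0.724 to 2.16 CPM with BMP2 and 1.02 to 1.76 CPM with PBS. Of the neuron markers, Tubb3 was at 221 to 272 CPM with BMP2 and 302 to 464 CPM with PBS, while Syp stayed at or under 1.20 CPM in every library. The part of these markers in the results was not tested. Id2, a direct target of BMP signalling, rose with BMP2 to 447 ± 266 CPM, against 59.4 ± 24.2 CPM with PBS (SD, n = 3 each; edgeR log2 fold change 2.80, SE 0.23, adjusted p 0.0152, and 0.21 without the block). Id1, another such target, was at 19.1 ± 9.32 CPM with BMP2 and 1.97 ± 1.46 CPM with PBS, with an edgeR log2 fold change of 3.35 (SE 0.78) that did not pass (adjusted p 0.131).

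Spheroids treated with BMP2 had higher levels than PBS spheroids in each batch for 6 of the 7 receptor genes at 1 CPM in 3 or more libraries, but no family member passed the test over all genes. Nrp1, Nrp2, Plxna1, Plxna4, Plxnb1, Plxnc1 and Plxnd1 were higher in all 3 batches, 7 of the 11 receptor genes, while Plxnb3 was lower in all 3 and the remaining 3 were mixed. With the size factors of DESeq2 Plxnb1 was no longer higher in all 3, its batch 1 libraries being at 35.9 CPM with BMP2 and 35.8 CPM with PBS. The 20 semaphorins were divided: 4 were higher in all 3 batches (Sema3a, Sema3b, Sema3e and Sema4f), 5 were lower in all 3 (Sema3c, Sema3f, Sema4a, Sema4g and Sema7a), and 11 were mixed. Under quantile normalization Sema3c was no longer lower in all 3. Of all genes tested, 22.7% had higher values with BMP2 in every batch and 21.1% had lower values in every batch. Sema4a and Plxnb3 were not among the genes tested. Of the tested members, 7 of 9 receptors were higher and 0 lower in every batch, and 4 of 16 semaphorins were higher and 4 lower.

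Of the 31 members, 25 passed the filter on low counts and entered the test, and Sema3d, Sema4a, Sema5a, Sema5b, Plxna2 and Plxnb3 did not. Of these 25, 0 were called at an adjusted p of 0.05 by the quasi-likelihood test of edgeR with batch as a block, where 0.735% of all genes tested were called (95 of 12929). The count was also 0 without the block, where 0.0464% of genes were called. At an unadjusted p of 0.05 in the blocked fit, 8 members were higher and 2 lower, against 8.12% and 8.89% of all genes. The groups did not overlap for 4 tested members with BMP2 above PBS and for 1 with BMP2 below PBS. Of all genes tested, 6.42% and 5.72% did not overlap in these directions. The Wald test of DESeq2 with the block called 2 members higher (Plxnd1 and Sema4f) and 2 lower (Sema4g and Sema7a), at 1.94% and 3.32% of its genes, and limma-trend after quantile normalization called 0 members and 0.897% of genes. With no filter on low counts edgeR called 2 members higher (Plxnd1 and Sema4f) and 0 lower, where 1.03% and 1.28% of genes were called. The median log2 fold change was 0.47 for the 9 tested receptors and 0.11 for the 16 tested semaphorins, against 0.01 for all genes tested. The median absolute log2 fold change was 0.47 for the 25 tested members and 0.24 for all genes tested. In bulk libraries, fewer cells of a type and less RNA per cell cannot be told apart.

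**Figure D1:**
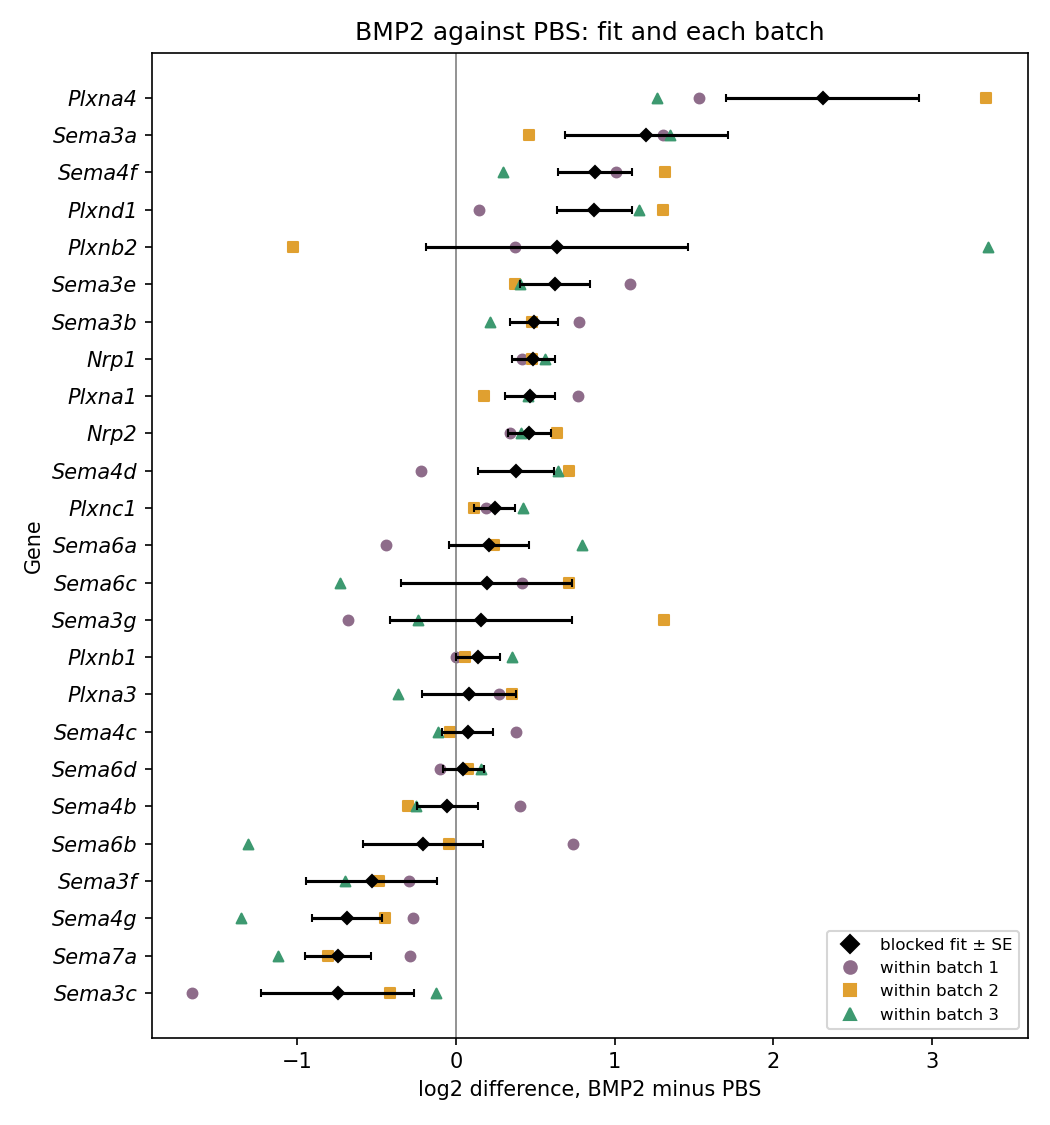
Log2 difference of BMP2 minus PBS (x axis) for the 25 tested members (y axis, ordered by fold change). Diamonds with bars are the blocked edgeR estimate ± SE and the other symbols are the differences within batches 1, 2 and 3. Plxnd1 lies at 0.87 with 0.15 in batch 1 and 1.31 in batch 2, while Nrp1 and Nrp2 lie at 0.49 and 0.46 with all 3 batches close together.

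The 19 members that reached 1 CPM in 3 or more libraries were Sema3b, Sema3c, Sema3e, Sema4b, Sema4c, Sema4d, Sema4f, Sema4g, Sema6a, Sema6b, Sema6d, Sema7a, Nrp1, Nrp2, Plxna1, Plxna3, Plxnb1, Plxnc1 and Plxnd1. Levels of different genes were compared as TPM, counts per exon base scaled to the same total in each library, computed here from the estimated counts and the merged exon length of each gene. On this scale Nrp2 was first, at 137.7 ± 34.2 TPM with BMP2 and 88.7 ± 18.4 TPM with PBS (SD, n = 3 each). It was followed by Sema3b, at 113 ± 8.55 TPM with BMP2 and 74.1 ± 20.8 TPM with PBS. Next came Plxnd1, at 107 ± 55.4 TPM with BMP2 and 48.2 ± 13.8 TPM with PBS, and Plxna1, at 83.4 ± 38.8 TPM with BMP2 and 58.9 ± 34.2 TPM with PBS. Nrp2 was above Sema3b in 5 of the 6 libraries, Sema3b above Plxnd1 in 4 and Plxnd1 above Plxna1 in 3, so the neighbours among these 4 genes did not separate in every library. Together these 4 genes made up 70.9% to 76.0% of the family's summed TPM with BMP2 and 64.0% to 66.3% with PBS.

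The next 13 genes in the order formed a continuous slope from Sema4g, at 18.9 ± 9.55 TPM with BMP2 and 25.2 ± 8.49 TPM with PBS, down to Sema3e, at 3.69 ± 0.377 TPM with BMP2 and 2.24 ± 0.819 TPM with PBS. Within this slope the rank of a gene moved between libraries, from 4 to 13 for Sema4g and from 6 to 14 for Sema7a. Plxna1 stood above Sema4g in 5 of 6 libraries, the exception being PBS 1, where Plxna1 was at 19.6 TPM and Sema4g at 20.9 TPM. Sema3e was above Plxna3, the next gene, in all 6 libraries. Summed by role, the 2 neuropilins were at 149.6 ± 35.5 TPM with BMP2 and 96.5 ± 20.2 TPM with PBS and the 7 secreted class 3 ligands at 118 ± 8.93 TPM with BMP2 and 77.6 ± 21.5 TPM with PBS. The 6 class 4 ligands summed to 64.3 ± 8.81 TPM with BMP2 and 62.1 ± 15.97 TPM with PBS, and the 4 class A plexins, nearly all of it Plxna1, to 84.9 ± 38.6 TPM with BMP2 and 59.97 ± 34.2 TPM with PBS.

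**Figure D2:**
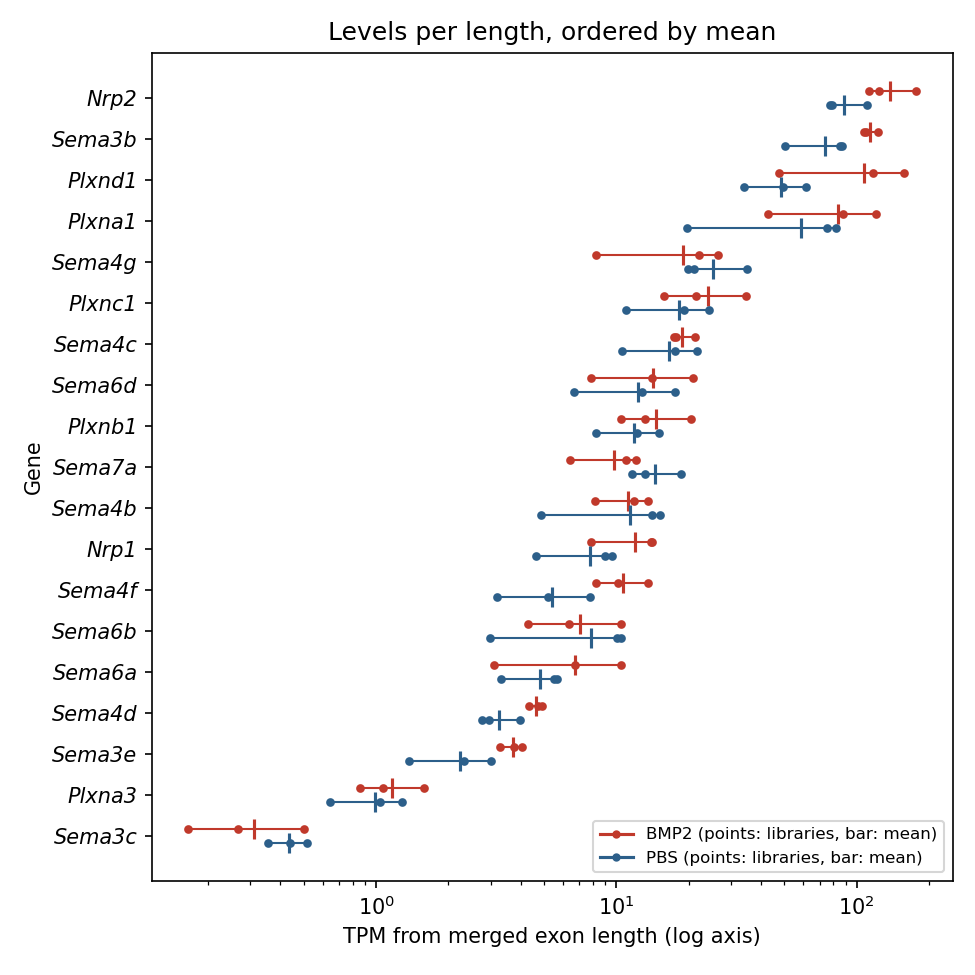
Level per length in TPM (x axis, log scale) for the 19 members at 1 CPM in 3 or more libraries (y axis, ordered by their mean). Small points are libraries, the horizontal line spans the 3 libraries of a group and the vertical bar is their mean, BMP2 above PBS. Nrp2, Sema3b, Plxnd1 and Plxna1 stand above the other genes in most libraries, and Sema3c is the lowest shown.

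Promoter sequences are shown for 2 receptors that were higher with BMP2 in each batch (Nrp2 and Plxnd1) and for the 2 membrane ligands whose groups were separate in opposite directions (Sema4f and Sema7a). They are the 250 bases before the RefSeq start of the gene on GRCm38.p6, 5′ to 3′, and capitals mark matches on either strand to 4 motifs. These were CAGAC, the short element bound by SMAD proteins, GGCGCC, a GC-rich motif bound by SMADs of the BMP pathway, and the E-boxes CACGTG and, in its M-box form, CATGTG, both of which the melanocyte factor MITF binds.
Nrp2 (chr1:62703067-62703316, plus strand): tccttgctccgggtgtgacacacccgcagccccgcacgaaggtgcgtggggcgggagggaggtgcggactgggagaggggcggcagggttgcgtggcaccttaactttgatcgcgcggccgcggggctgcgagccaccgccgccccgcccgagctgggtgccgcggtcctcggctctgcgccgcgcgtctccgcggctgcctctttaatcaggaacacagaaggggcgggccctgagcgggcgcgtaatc
Plxnd1 (chr6:115995006-115995255, minus strand): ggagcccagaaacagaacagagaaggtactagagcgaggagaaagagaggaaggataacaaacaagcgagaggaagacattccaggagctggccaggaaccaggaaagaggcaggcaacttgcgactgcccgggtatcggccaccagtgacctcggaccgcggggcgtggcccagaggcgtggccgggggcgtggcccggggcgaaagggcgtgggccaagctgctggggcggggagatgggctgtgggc
Sema4f (chr6:82939770-82940019, minus strand): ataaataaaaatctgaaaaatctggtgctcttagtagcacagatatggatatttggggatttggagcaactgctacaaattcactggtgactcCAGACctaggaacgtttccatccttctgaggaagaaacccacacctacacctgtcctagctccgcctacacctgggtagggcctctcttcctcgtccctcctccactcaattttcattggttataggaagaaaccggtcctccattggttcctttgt
Sema7a (chr9:57939862-57940111, plus strand): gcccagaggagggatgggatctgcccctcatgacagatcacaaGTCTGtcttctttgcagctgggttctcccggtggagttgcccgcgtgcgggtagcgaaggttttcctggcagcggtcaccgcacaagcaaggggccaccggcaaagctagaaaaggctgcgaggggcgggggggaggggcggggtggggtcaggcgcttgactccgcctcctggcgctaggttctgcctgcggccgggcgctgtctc
In these windows CAGAC occurred once in Sema4f and once, on the other strand, in Sema7a, and the other 3 motifs occurred 0 times. Over all 32851 RefSeq promoters of the same length, 42.2% held CAGAC, 9.59% GGCGCC, 6.02% CACGTG and 12.3% CATGTG. The 37 promoters listed for 26 members held them in 51.4%, 16.2%, 5.41% and 2.70% of cases, and Plxna1, Plxna4, Sema3b, Sema3f and Sema6a had no entry. No motif contains another, and a match is a description of letters only. The GC content was 72.4% for Nrp2, 64.8% for Plxnd1, 46.0% for Sema4f and 66.4% for Sema7a.

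Nrp2 (ENSMUSG00000025969, GRCm38 chromosome 1, 62703285 to 62818695) is a co-receptor for class 3 semaphorins such as Sema3f and for VEGF family ligands. In TMM-scaled CPM it was at 527, 760 and 437 in BMP2 libraries 1, 2 and 3 and at 415, 490 and 329 in PBS libraries 1, 2 and 3. Each BMP2 library was above the PBS library of its batch, though the groups overlapped because batch 3 was low in both. In the blocked fit the log2 fold change was 0.46 (SE 0.14, edgeR adjusted p 0.19), with 0.34, 0.63 and 0.41 within batches 1, 2 and 3.

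Nrp1 (chromosome 8, 128358604 to 128503363), the co-receptor of Sema3a and of VEGF-A, was at 27.6, 49.5 and 45.2 CPM with BMP2 and at 20.7, 35.4 and 30.7 CPM with PBS. Its log2 fold change was 0.49 (SE 0.13, edgeR adjusted p 0.174), and its differences within batches were 0.41, 0.48 and 0.56. Both neuropilins thus differed by a similar amount in each batch without passing over all genes. Over the 15 alternative settings the difference lay between 0.30 and 0.71 for Nrp1, lowest without PBS 1, and between 0.22 and 0.64 for Nrp2, lowest without the BMP2 library of batch 2.

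Among the plexins, Plxnd1 (ENSMUSG00000030123, chromosome 6, 115954811 to 115995005) had the highest level per length when averaged over both treatments. Plxna1 was higher in the PBS mean and in 3 of 6 libraries. Plxnd1 is the direct receptor of Sema3e and is best known from vascular patterning. Its level was 125, 417 and 280 CPM in the BMP2 libraries of batches 1, 2 and 3, and 113, 169 and 126 CPM in the PBS libraries. BMP2 libraries 2 and 3 were high, and BMP2 library 1 lay below PBS libraries 2 and 3. Over the 3 batches the log2 fold change was 0.87 (SE 0.24, edgeR adjusted p 0.171), and within batches it was 0.15, 1.31 and 1.15. Without batch 1 it was 1.22 with an edgeR adjusted p of 0.00331, from a fit with 1 residual degree of freedom. That fit called 223 genes higher and 308 lower of 12909 tested, against 48 and 47 of 12929 with all batches. Without BMP2 library 2, in a fit without the block, the log2 fold change was 0.56. DESeq2 gave 0.86 with an adjusted p of 0.00674, and edgeR with no filter on low counts gave 0.89 with an adjusted p of 0.0174. Over the 15 alternatives its adjusted p ran between 0.00331 and 0.9999.

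Plxna1 (chromosome 6, 89316314 to 89362620), a class A plexin that signals with neuropilins and with class 6 ligands, was at 138, 289 and 357 CPM with BMP2 and at 80.9, 256 and 260 CPM with PBS. Both libraries of batch 1 lay far below the other 4. The estimate was 0.47 on the log2 scale (SE 0.16, edgeR adjusted p 0.232). In fits without the block it was 0.39 with all 6 libraries and 0.01 when PBS 1 was left out. An antisense gene, Gm26811, overlaps 10.7% of the exon bases of Plxna1 and was not analysed here. No source used here gives the strand setting of the counting, so reads from either could not be separated.

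Plxna4, a class A plexin of the nervous system, was scarce, at 0.582, 2.25 and 0.874 CPM with BMP2 and 0.163, 0.169 and 0.329 CPM with PBS. Every BMP2 library was above every PBS library, as for 6.42% of all genes tested. This rested on 129 estimated counts with BMP2 and 22 with PBS, with a log2 fold change of 2.31 (SE 0.61, edgeR adjusted p 0.165), and it was above 1 CPM in 1 library. BMP2 library 2 held 77 of the 129 counts, and without batch 2 the log2 fold change was 1.59. It was the only receptor whose groups were separate with BMP2 above PBS.

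Plxnc1, the receptor of Sema7a, was at 47.3, 65.3 and 95.1 CPM with BMP2 and 41.5, 60.3 and 71.0 CPM with PBS. Plxnb1, the receptor of Sema4d, was at 35.9, 45.7 and 64.4 CPM with BMP2 and 35.8, 44.0 and 50.4 CPM with PBS. For both genes the batches differed more than the treatments, with log2 fold changes of 0.24 (SE 0.13) and 0.14 (SE 0.14). Plxna3, another class A plexin, was at 1.91 to 4.48 CPM over the 6 libraries with a log2 fold change of 0.08 (SE 0.30). The adjusted p values of Plxnc1, Plxnb1 and Plxna3 in edgeR were 0.38, 0.625 and 0.909.

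Plxnb2, a class B plexin that binds Sema4c, differed between batches. It was at 5.24, 0.438 and 0.849 CPM with BMP2 and at 4.03, 0.956 and 0.0299 CPM with PBS, so that both batch 1 libraries were above all others, as for 19.8% of all genes tested. Its log2 fold change of 0.64 (SE 0.83, edgeR adjusted p 0.712) was unstable and lay between -1.36 and 2.10 when libraries or batches were left out. Plxna2 and Plxnb3 stayed under 0.48 CPM in all libraries. Plxnb3 was at 0.240, 0.117 and 0.250 CPM with BMP2 and at 0.325, 0.365 and 0.479 CPM with PBS. It was the receptor whose BMP2 libraries all lay below the PBS libraries. For Plxnb3 these levels came from 21 estimated counts with BMP2 and 39 with PBS, and 5.72% of all genes tested were separate in that direction.

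**Figure D3:**
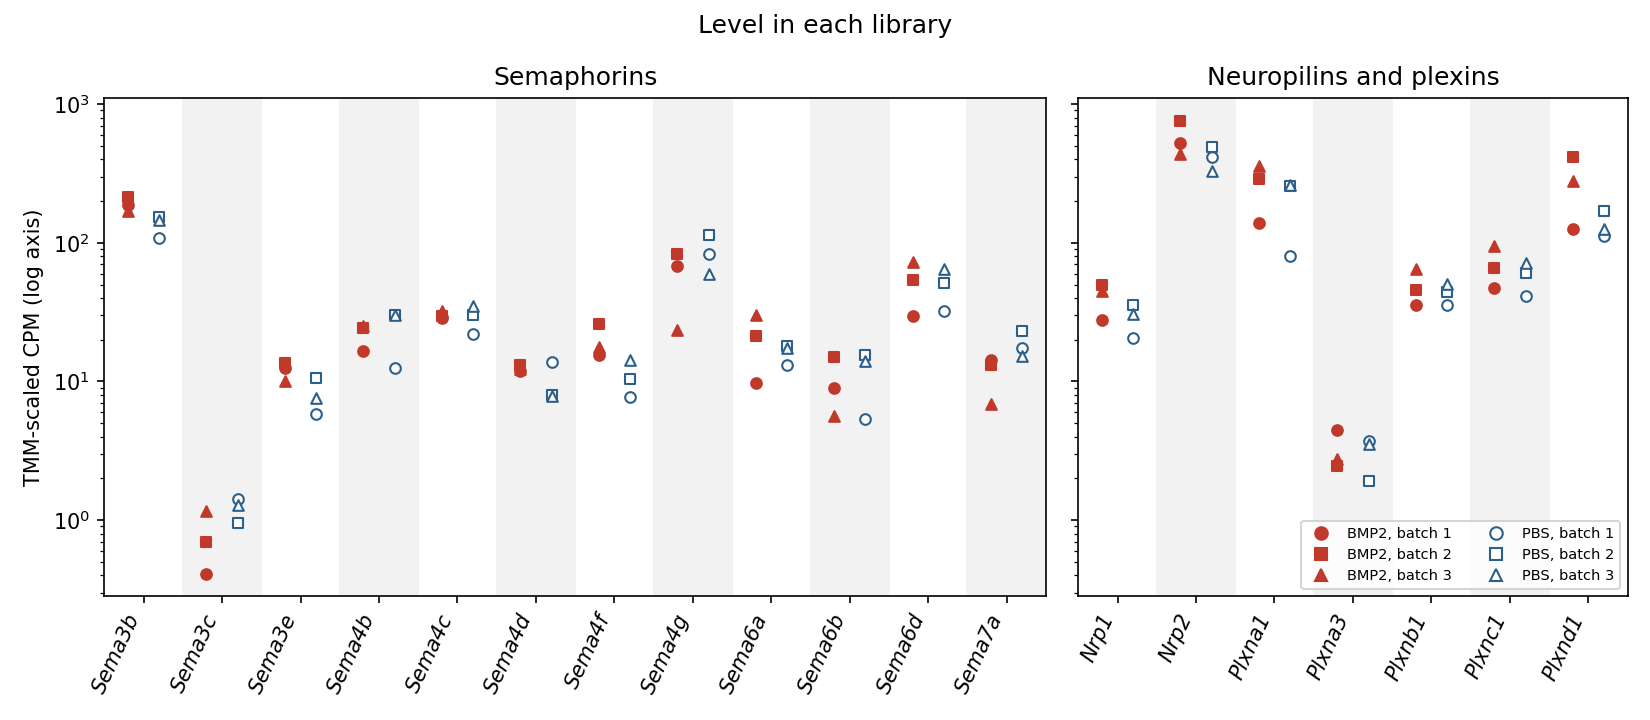
TMM-scaled CPM (y axis, log scale) of the 19 members at 1 CPM in 3 or more libraries in each of the 6 libraries, semaphorins in the left panel and receptors in the right. Filled symbols are BMP2, open symbols PBS, and shapes mark batches 1 to 3. Sema3b and Sema4f are separate with BMP2 above PBS, as were 6.42% of all genes tested. Sema7a is separate with BMP2 below PBS, as were 5.72%, and the other 16 genes overlap.

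Among the secreted ligands, Sema3b (ENSMUSG00000057969, chromosome 9, 107597674 to 107609229) was by far the most abundant. It binds neuropilins and is known in human lung tissue as a candidate tumour suppressor. Its level was 187, 214 and 169 CPM with BMP2 and 109, 153 and 146 CPM with PBS. All BMP2 libraries lay above all PBS libraries, as for 6.42% of all genes tested. Within batches the log2 differences were 0.78, 0.48 and 0.22, and the fitted value was 0.49 (SE 0.15, edgeR adjusted p 0.208).

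Sema3e, the ligand of Plxnd1, was at 12.5, 13.6 and 10.0 CPM with BMP2 and 5.82, 10.5 and 7.57 CPM with PBS. The groups overlapped by 1 pair, BMP2 library 3 lying below PBS library 2. Its log2 fold change was 0.62 (SE 0.22, edgeR adjusted p 0.247), and 0.38 without batch 1. Ligand and receptor were both higher with BMP2 in each batch and neither passed over all genes. Sema3c, which acts in cardiac outflow tract formation, was at 0.411, 0.701 and 1.17 CPM with BMP2 and 1.43, 0.956 and 1.29 CPM with PBS, a log2 fold change of -0.75 (SE 0.48, edgeR adjusted p 0.457). It was -0.29 without batch 1 and, in a fit without the block, -1.13 without BMP2 library 3.

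The remaining class 3 ligands stayed under 1 CPM, apart from Sema3f in PBS 1. Sema3a, the ligand that collapses growth cones through Nrp1, was at 0.650, 0.409 and 0.549 CPM with BMP2 and 0.228, 0.281 and 0.180 CPM with PBS. Its groups did not overlap, with BMP2 above PBS as for 6.42% of all genes tested, on 55 estimated counts with BMP2 and 23 with PBS. The log2 fold change was 1.20 (SE 0.52, edgeR adjusted p 0.301). Sema3f, the ligand of Nrp2, was at 0.474 to 0.890 CPM with BMP2 and 0.759 to 1.11 CPM with PBS. Sema3g was at 0.342 to 0.993 CPM with BMP2 and 0.365 to 0.629 CPM with PBS, and Sema3d summed to 9 estimated counts with BMP2 and 5 with PBS.

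Among the membrane ligands, Sema4f (ENSMUSG00000000627, chromosome 6, 82911885 to 82939769), a transmembrane semaphorin of the brain, had the largest log2 fold change of those at 1 CPM in 3 or more libraries. It was at 15.6, 25.9 and 17.7 CPM with BMP2 and 7.71, 10.4 and 14.4 CPM with PBS. Every BMP2 library of Sema4f was above every PBS library, as for 6.42% of all genes tested. The log2 fold change was 0.88 (SE 0.23, edgeR adjusted p 0.167), with 1.01, 1.32 and 0.30 within batches. DESeq2 gave 0.86 with an adjusted p of 0.0259 and edgeR with no filter gave 0.89 with 0.0414. Without batch 3 the value was 1.17 with an edgeR adjusted p of 0.0349. That fit had 1 residual degree of freedom and called 115 genes higher and 103 lower of 13165 tested. Over the 15 alternatives the adjusted p of Sema4f ran between 0.0259 and 0.9999. The smallest log2 fold change was 0.61, without BMP2 library 2.

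Sema7a (ENSMUSG00000038264, chromosome 9, 57940112 to 57962865), the GPI-anchored ligand of Plxnc1 and of beta1 integrin, had lower values with BMP2. It was at 14.3, 13.1 and 6.92 CPM with BMP2 and 17.5, 23.0 and 15.1 CPM with PBS, and all BMP2 libraries were below all PBS libraries, as for 5.72% of genes. The log2 fold change was -0.74 (SE 0.21, edgeR adjusted p 0.179), with -0.29, -0.81 and -1.12 within batches. DESeq2 gave -0.76 with an adjusted p of 0.0464. Without batch 1 edgeR gave -0.97 with an adjusted p of 0.0316, the lowest of the 15 alternatives, of which the highest was 0.9999. That fit had 1 residual degree of freedom and called 223 genes higher and 308 lower of 12909 tested. Without BMP2 library 3, in a fit without the block, the log2 fold change was -0.44.

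Sema4g (chromosome 19, 44989101 to 45003397), the most abundant membrane ligand per length when averaged over the 6 libraries, was at 68.3, 83.6 and 23.4 CPM with BMP2 and 82.5, 114 and 60.0 CPM with PBS. BMP2 library 3 was low and the groups overlapped. The log2 fold change was -0.69 (SE 0.22, edgeR adjusted p 0.218), -0.36 without batch 3 and, in fits without the block, -0.28 without PBS library 2 and -0.17 without BMP2 library 3. DESeq2 gave -0.70 with an adjusted p of 0.0418, the lowest of the 15 alternatives, of which the highest was 0.9999.

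For the other 6 membrane ligands at 1 CPM in 3 or more libraries the difference took both signs across the 3 batches. Sema4d, the ligand of Plxnb1, was at 11.9, 13.1 and 12.4 CPM with BMP2 and 13.9, 8.01 and 7.90 CPM with PBS, higher in batches 2 and 3 and lower in batch 1 (log2 fold change 0.38, SE 0.24). Sema4c, the ligand of Plxnb2, was at 28.6 to 32.1 CPM with BMP2 and 22.02 to 34.8 CPM with PBS (log2 fold change 0.07, SE 0.16). Sema4b was at 16.5 to 25.2 CPM with BMP2 and 12.5 to 29.99 CPM with PBS (log2 fold change -0.06, SE 0.19). For Sema4b and Sema4c both batch 1 libraries were the lowest. Of the class 6 ligands, which bind class A plexins, Sema6d was at 29.8 to 72.2 CPM with BMP2 and 31.98 to 64.7 CPM with PBS (log2 fold change 0.05, SE 0.13). Sema6a was at 9.69 to 30.3 CPM with BMP2 and 13.2 to 18.1 CPM with PBS (log2 fold change 0.21, SE 0.25). Sema6b was at 5.59 to 15.1 CPM with BMP2 and 5.40 to 15.6 CPM with PBS (log2 fold change -0.21, SE 0.38), with differences of 0.74, -0.04 and -1.31 within batches 1, 2 and 3. The edgeR adjusted p values of these 6 genes were 0.449 to 0.906. In Sema4c, 7.27% of the exon bases overlap an opposite-strand gene, D430040D24Rik, that was not analysed here.

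Sema6c and Sema4a exceeded 1 CPM in 1 library each and Sema5a in 2. Sema6c was at 0.175 to 1.05 CPM with BMP2 and 0.293 to 0.618 CPM with PBS. Sema5a, which carries thrombospondin repeats, was at 1.13 and 1.66 CPM in the BMP2 and PBS libraries of batch 1 and at 0.0599 to 0.169 CPM in the other 4 libraries. Sema4a, known for its action on T cells, was at 1.66 CPM in PBS 1 and at 0.0584 to 0.329 CPM elsewhere. Sema5b summed to 3 estimated counts with BMP2 and 1 with PBS, at or under the floor of 3 counts, and no fold is given.

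Levels also differed between batches. Both libraries of batch 1 lay below the other 4 for 9 of the 25 tested members (Sema4b, Sema4c, Sema6a, Sema6d, Nrp1, Plxna1, Plxnb1, Plxnc1 and Plxnd1), where 19% of all genes tested did so. Both lay above the other 4 for 3 members (Sema3f, Plxna3 and Plxnb2), against 19.8% of all genes. The library PBS 1 was the lowest of all 6 for 11 of the 19 members at 1 CPM, and BMP2 library 2 was the highest for 6. The shares of all genes with these extremes were not counted, so the counts are not read as a trait of the family. Both batch 2 libraries lay above the other 4 for Sema4g, Sema6b and Sema6c and below them for Plxna3, as did 4.79% and 5.04% of all genes. Both batch 3 libraries lay above the others for Sema4c, Sema6d, Plxnb1 and Plxnc1 and below them for Sema4g, as did 14.1% and 12.4% of all genes. In fits that do not block on batch, the median log2 fold change of the 25 tested members was 0.33 with all libraries. Leaving out BMP2 library 1, 2 or 3 gave 0.36, 0.21 and 0.074. Leaving out PBS library 1, 2 or 3 gave 0.19, 0.18 and 0.31, so a lower median was not particular to PBS 1. These fits with a library left out tested 26 to 28 members.

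**Figure D4:**
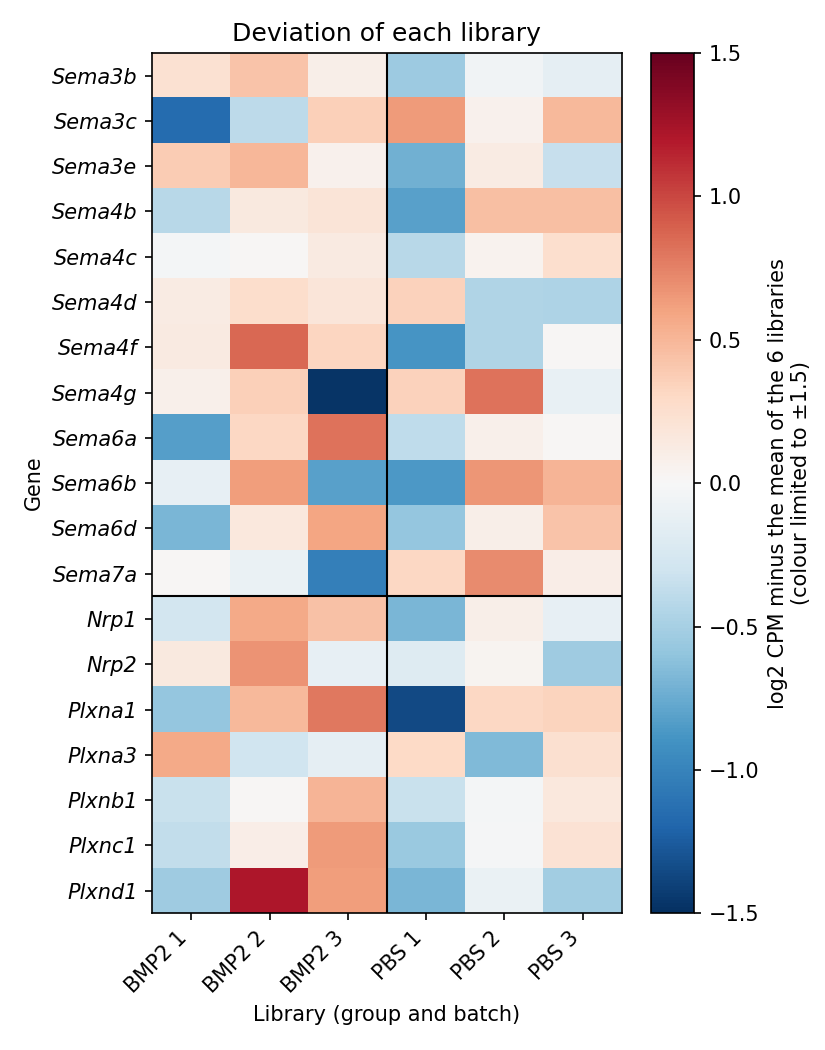
Deviation of log2 CPM in each library from the mean of the 6 libraries (colour, limited to 1.5 either way) for the 19 members (rows) in BMP2 libraries 1 to 3 and PBS libraries 1 to 3 (columns). Blue cells in the first PBS column mark members with low values in PBS 1, and Plxna1 and Plxnd1 are low in batch 1 under both treatments.

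Plexins and neuropilins act through co-receptors, exchange factors, small GTPases and proteases, of which 51 genes were listed and 46 were tested. With the block, 1 of these rose and 1 fell over all genes tested, against 0.371% and 0.364% of all genes, and 0 passed without the block. Rras, a GTPase that plexins inactivate, fell to 86.0, 68.7 and 38.0 CPM with BMP2, against 183, 126 and 106 CPM with PBS, a log2 fold change of -1.15 (SE 0.16, edgeR adjusted p 0.0363). All its BMP2 libraries were below all its PBS libraries. Rhod, an endosomal GTPase that binds plexins, was at 51.2, 72.5 and 68.0 CPM with BMP2 and 24.4, 15.5 and 16.8 CPM with PBS, and rose by 1.78 on the log2 scale (SE 0.24, edgeR adjusted p 0.0363). Its groups did not overlap either.

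Without the block the edgeR adjusted p was 0.687 for Rras and 0.101 for Rhod, at nearly the same fold changes (-1.11 and 1.76). Without batch 2 it was 0.134 for Rras and 0.151 for Rhod, at -1.28 and 1.55. Over the 15 alternatives the adjusted p ran between 4.7e-08 and 0.9999 for Rras and between 2.2e-10 and 0.571 for Rhod. Next among the partners that were higher were Adam10, a metalloprotease that sheds membrane proteins, at 1.01 (SE 0.21), and Gipc1, a PDZ protein that binds the neuropilin tail, at 0.33 (SE 0.13). Next among those that were lower were Dpysl5, a collapsin response mediator protein, at -1.19 (SE 0.35), and Farp1, a guanine nucleotide exchange factor, at -0.48 (SE 0.14). These 4 did not pass, with edgeR adjusted p of 0.107, 0.279, 0.196 and 0.197. Of the 46 tested partners, every batch had a higher value with BMP2 for 9 and a lower one for 14, with a median fold change of -0.13 on the log2 scale. Over all genes tested these shares were 22.7% and 21.1%. The groups did not overlap for 2 partners with BMP2 above PBS and for 8 with BMP2 below PBS, where 6.42% and 5.72% of all genes did not overlap. The VEGF receptor genes Kdr and Flt1, which pair with neuropilins in endothelium, did not enter the test, Kdr at a mean of 0 CPM with BMP2 and 0.010 CPM with PBS and Flt1 at 0.028 CPM with BMP2 and 0.011 CPM with PBS.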

How the data were processed

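The authors deposited estimated counts per Ensembl gene, unscaled, which the submitters' processing notes credit to kallisto 0.44.0 and GRCm38.p6. The sources used here do not give the annotation release, the strand setting or how transcripts were summed to genes. Of 34981 genes, 34679 were matched to GENCODE M21 by identifier, and columns named as controls were read as the untreated samples. At most 8.57% of the 31-mers of a member (Plxna1) occur in other genes.

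Rounded counts were tested with edgeR 4.0.16 (R 4.3.3) by its quasi-likelihood test, with its default low-count filter, TMM scaling, batch as a block (2 residual degrees of freedom, 4 without it) and Benjamini-Hochberg adjustment over 12929 genes at 0.05. The batch field of the labels and the series design give the shared batches, and deviations from group means correlated at 0.51, 0.25 and 0.52 within batches 1, 2 and 3. Fold changes are BMP2 minus PBS, with the SE taken from the F statistic. Log2 differences within batches use a prior count of 2. TPM uses merged exon length. Alternatives were no block, no filter, 1 CPM in 3 libraries, DESeq2 1.42.0 size factors or Wald test, quantile normalization with limma-trend (limma 3.58.1), and batches or libraries left out. The test was also run on simulated counts whose means and dispersions came from these data. The simulated batch effects were drawn at random, so that run does not check the fit under the real batches.

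Values per library are given for members whose groups do not overlap and for the most abundant of each role, and for others chosen after their values were seen. Partner genes were named if they passed or had 1 of the 3 smallest p in a direction. Kdr and Flt1, which were not tested, were named outside this rule. Members and lists were chosen with earlier results of these data known. The Schwann cell markers, and the sum that holds them, are not reported here. Sequences are from RefSeq on GRCm38.p6.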

Additional observations from a re-analysis of the deposited data

How the results depend on the processing

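Of the 25 tested members, 14 kept their direction under every alternative that gave them a value (15, or 14 for members that the 1 CPM filter removes), and the other 11 changed direction when batches or libraries were left out and under no other setting. Their log2 fold changes then spanned -0.23 to 0.31 for Plxna3, -0.093 to 0.34 for Plxnb1, -1.36 to 2.10 for Plxnb2, -0.036 to 0.48 for Plxnc1, -0.50 to 0.57 for Sema3g, -0.45 to 0.077 for Sema4b, -0.12 to 0.20 for Sema4c, -0.099 to 0.67 for Sema6a, -0.69 to 0.34 for Sema6b, -0.53 to 0.82 for Sema6c, -0.24 to 0.36 for Sema6d. The 12 members under 1 CPM in 3 libraries rest on at most 202 estimated counts a group.

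Without the replicate block 1 gene was higher and 5 lower over all genes (48 and 47 with it), 0 partner genes passed in either direction, 0 members passed, and the median of the tested members was 0.33 (0.21 with it). With no filter on low counts 223 genes were higher and 277 lower, with 2 members higher (Plxnd1 and Sema4f) and 2 partner genes in each direction. With the DESeq2 Wald test 241 genes were higher and 412 lower, with 2 members and 2 partner genes in each direction. The cause of these shifts was not tested. With a batch left out, or a single library in fits without the block, genes called numbered 0 to 223 higher and 2 to 308 lower, members 0 to 1 in either direction, partner genes 0 to 2 higher and 0 to 1 lower, and the median of the tested members was 0.074 to 0.36. The lowest median came without BMP2 replicate 3 and the highest without BMP2 replicate 1. Members called were Plxnd1 and Sema7a without batch 1 and Sema4f without batch 3, in fits with 1 residual degree of freedom. Of all genes, the fit without batch 1 called 223 higher and 308 lower of 12909 tested. The fit without batch 3 called 115 higher and 103 lower of 13165 tested.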
